A study of Ovis aries with 3 samples.

Results

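The mature products of the miR-199 and miR-214 genes were followed in the left ventricle (LV) of sheep, in normal animals (Cont), in heart failure (HF) and after recovery from it (HF-R). The members were all entries of the 2 merged count tables whose name, without its species prefix, was miR-199a, miR-199b or miR-214 with any copy or arm suffix. There were 4 such entries among 636, namely miR-199a-5p, miR-199b-5p, miR-214-5p and miR-214-3p. All 4 came from the table of hsa- (human), mmu- (mouse) and rno- (rat) miRNAs, with a match of 100%, and none from the table of known oar- (sheep) miRNAs. Some other entries had a match of 70 to 99%, so that shares given below over all entries cover both kinds. The animals were Coopworth ewes. The paper states that the sheep were instrumented through a left thoracotomy under anesthesia. Those of the HF and HF-R groups also had a pacing electrode implanted in the LV wall. Effects of the electrode and of pacing cannot be told apart here. The Cont library was made from pooled RNA of 4 normal sheep that were not paced. The HF library was made from 6 sheep paced rapidly in the LV, which one label gives as 220 bpm for 13 days and another as 225 bpm for 14 days. The HF-R library was made from 4 sheep whose pacing had ended, 26 days before by one label and 14 days by another. Each condition is thus 1 pooled library, the spread between sheep cannot be seen, and no p-value between conditions was computed. Sampling of the whole ventricular wall was not restricted to any cell type.

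A miRNA gene is transcribed as a hairpin, and either arm of the hairpin can give a mature strand (5p or 3p) that enters the silencing complex. The complex finds its messenger RNAs mainly through the seed, bases 2 to 8 from the 5′ end, so a strand that starts 1 base earlier has another seed. In mouse and human, miR-199a-2 and miR-214 are cut from one long transcript, DNM3OS, that runs antisense within the dynamin gene DNM3. The other copies, miR-199a-1 and miR-199b, lie antisense within DNM2 and DNM1. This transcript is abundant in mesenchymal cells, and the cluster is best known in the heart from fibroblasts and fibrosis. In mouse heart miR-214 limits the sodium-calcium exchanger NCX1, and miR-199b limits the kinase Dyrk1a in the calcineurin pathway of hypertrophy. In rat cardiomyocytes miR-199a-5p limits Hif1a and Sirt1.

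The mature sequences are shown because every result below turns on which of them a read can be told apart from. They are given as DNA letters from the deposited tables, 5′ to 3′, with the seed in capitals.
miR-199a-5p: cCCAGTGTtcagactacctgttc
miR-199b-5p: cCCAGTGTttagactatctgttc
miR-214-5p: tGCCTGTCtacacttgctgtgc
miR-214-3p: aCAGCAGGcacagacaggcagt
The 2 miR-199 5p strands have the same length of 23 nt and the same seed. They differ by C10T and C17T, counted from the 5′ end with the miR-199a-5p base first. Reads of 15 to 30 nt were kept, so a read that begins at the annotated 5′ end covers base 10. Neither miR-214 arm shares that seed or the seed of the other arm.

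In the sheep build Oar_v4.0, miR-199a-5p was found without a mismatch at chr12:37693700-37693722 and at chr5:12898462-12898484, both on the minus strand. Its counts are those of the sequence and cannot be divided between the 2 genes. MiR-199b-5p lay at chr3:7905492-7905514 on the plus strand. MiR-214-5p lay at chr12:37687912-37687933 and miR-214-3p at chr12:37687871-37687892, both on the minus strand, with 19 bases of loop between them. The miR-214 arms were separated from the miR-199 hairpin of chromosome 12 by 5728 bases. In the RefSeq table of another sheep assembly, ARS-UI_Ramb_v3.0, a miR-199a gene on chromosome 12 lies within DNM3, as in mouse and human. The exon or intron of the Oar_v4.0 positions was not analysed here.

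Entries with the same counts and overlapping positions were taken once, which left 621 distinct entries. Their totals were 4711131 (Cont), 6154795 (HF) and 5990078 (HF-R) counts, and levels are given as CPM, the count per 1000000 counts of the total. MiR-1, the most abundant cardiomyocyte miRNA, made up between 25.4 and 32.4% of a library, with its highest share in HF-R. Ratios are of CPM, with an exact 95% conditional interval that covers counting error only. A call needed a difference of 1.5-fold or more in either direction and an interval that did not include 1. It was made for the 356 distinct entries that averaged 10 counts or more, and all 4 members did. The median entry had an HF/Cont ratio of 1.12, an HF-R/Cont ratio of 0.98 and an HF-R/HF ratio of 0.817, so HF stood above both other libraries for most entries, and this shift depends on the scaling. With the trimmed mean of M values (TMM) the same medians were 0.878, 0.982 and 1.04.

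The 5p strand of miR-199a dominated the cluster and was the 41st most abundant of the 621 distinct entries. It had 4302, 7497 and 8147 counts in Cont, HF and HF-R, which is 913 CPM (95% Poisson interval 886 to 941), 1218 CPM (1191 to 1246) and 1360 CPM (1331 to 1390). The level was lowest in Cont and highest in HF-R, and no pair of these counting intervals overlapped. The ratio was 1.33 (1.28 to 1.39) for HF/Cont and 1.49 (1.44 to 1.55) for HF-R/Cont, and neither was called, the second falling just under the size threshold. The HF-R/HF ratio was 1.12 (1.08 to 1.15). With TMM the HF/Cont ratio was 1.05 and the HF-R/Cont ratio 1.49, so that the size of the HF difference from Cont rested on the scaling. The HF-R/Cont ratio was above 1 with each scaling, but its size and its call depended on the scaling too. It was 1.34 with the total of the perfect-match tables and 1.62 without miR-1. With DESeq2's size factors the HF-R/Cont ratio was 1.55 and passed the threshold.

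MiR-199b-5p, the seed-sharing strand from chromosome 3, ranked 74th. It had 1574, 2283 and 2218 counts, or 334 CPM (318 to 351), 371 CPM (356 to 386) and 370.3 CPM (355 to 386). The HF and HF-R levels could not be told apart at this depth, with an HF-R/HF ratio of 1.00 (0.941 to 1.06). Its ratios to Cont were 1.11 (1.04 to 1.18) in HF and 1.11 (1.04 to 1.18) in HF-R, and no comparison was called. The HF/Cont value lay at the median of all entries (0.991 times it, 0.929 to 1.06), and with TMM it was 0.87.

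The arms of miR-214 were much less abundant, and the more abundant of them ranked 196th. MiR-214-5p had 54, 109 and 127 counts in Cont, HF and HF-R, which is 11.5 CPM (8.61 to 15.0), 17.7 CPM (14.5 to 21.4) and 21.2 CPM (17.7 to 25.2). Cont was the lowest library, its interval overlapped that of HF slightly, and it stood apart from HF-R. The strand was called higher in HF (1.55, 1.11 to 2.18) and in HF-R (1.85, 1.34 to 2.59), and not between HF-R and HF (1.2, 0.92 to 1.56). The HF/Cont call was lost with TMM and with DESeq2's size factors, and relative to the median entry the HF/Cont ratio was 1.38 (0.987 to 1.95). Under both, its HF-R/Cont ratio kept the call (1.85 and 1.92), and with TMM HF-R/HF was called too (1.53).

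MiR-214-3p, the arm for which the regulation of NCX1 was described in mouse, had 37, 57 and 99 counts in Cont, HF and HF-R. These are 7.85 CPM (5.53 to 10.8), 9.26 CPM (7.01 to 12) and 16.5 CPM (13.4 to 20.1). HF-R was above both other libraries, whose intervals overlapped each other. The strand was called higher in HF-R than in Cont (2.10, 1.43 to 3.16) and than in HF (1.78, 1.28 to 2.52), while HF/Cont was 1.18 (0.766 to 1.83) and 0.924 with TMM. Relative to the median entry the HF-R/HF ratio was 2.18 (1.56 to 3.08).

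**Figure D1:**
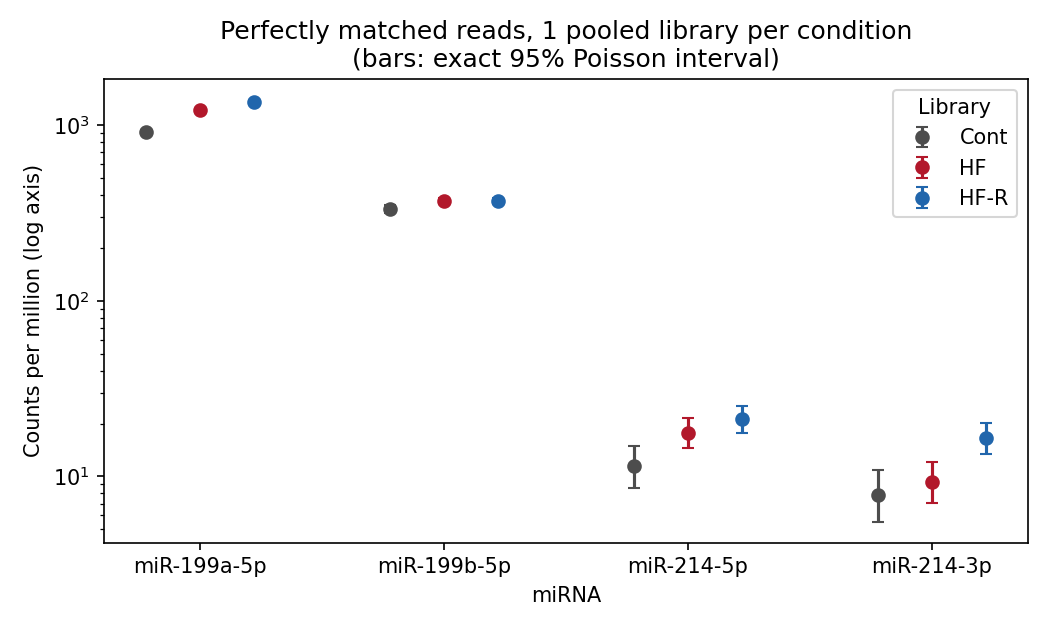
Level of each member in CPM (log axis) in the 3 pooled libraries, with exact 95% Poisson intervals. MiR-199a-5p lies between 913 and 1360 CPM and miR-214-3p between 7.85 and 16.5 CPM, and each member is lowest in Cont at this scaling, which for miR-199b-5p and miR-214-3p turns with TMM (HF/Cont 0.87 and 0.924).

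In counts of calls, 1 of the 4 members was higher in HF than in Cont, where 22.8% of all tested entries were called higher. Between HF-R and Cont, 2 of the 4 were called higher, both of them arms of miR-214, where 4.78% of all entries were. Between HF-R and HF, 1 of the 4 was called higher, where 5.06% of all entries were. No member was called lower, where 7.87% of all entries were lower in HF than in Cont, 11.2% lower in HF-R than in Cont and 23.3% lower in HF-R than in HF. For HF/Cont the share of members called was near that of all entries. For HF-R/Cont, 88.2% of all tested entries had a lower ratio than miR-199a-5p, 93.3% a lower one than miR-214-5p and 96.1% a lower one than miR-214-3p, against 62.9% for miR-199b-5p. Summed, the members had 5967, 9946 and 10591 counts. They made up 0.127% (exact binomial interval 0.123 to 0.130%), 0.162% (0.158 to 0.165%) and 0.177% (0.173 to 0.180%) of the distinct counts. The sum followed miR-199a-5p, which held 72.1, 75.4 and 76.9% of it.

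The 2 strands with the same seed did not change in parallel, a comparison within each library that no scaling between libraries can alter. There were 2.73 (2.58 to 2.90) counts of miR-199a-5p per count of miR-199b-5p in Cont, 3.28 (3.13 to 3.44) in HF and 3.67 (3.5 to 3.85) in HF-R. The balance was thus tilted towards miR-199a-5p in both libraries from paced sheep. The odds ratio was 1.2 (exact conditional 95% interval 1.11 to 1.30) for HF over Cont, 1.34 (1.25 to 1.45) for HF-R over Cont and 1.12 (1.05 to 1.2) for HF-R over HF. The intervals cover counting error only, and the spread of this balance between sheep is unknown.

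For the 2 arms of the miR-214 hairpin no such shift could be shown at this depth. The 5p arm had 1.46 (0.943 to 2.28) counts per count of the 3p arm in Cont, 1.91 (1.38 to 2.68) in HF and 1.28 (0.979 to 1.69) in HF-R. The odds ratio was 1.31 (0.746 to 2.29) for HF over Cont, 0.879 (0.519 to 1.48) for HF-R over Cont and 0.672 (0.433 to 1.04) for HF-R over HF. All 3 intervals include 1, and the order of the arms itself depended on which reads were counted.

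Besides perfect matches, the tables of each library list reads that match a miRNA in part, at 70 to 99%, with a count for each miRNA. These partially matched reads are shorter, longer or mismatched forms, and the merged counts of the members do not hold them. For miR-214-5p, 6 of 23, 7 of 23 and 2 of 38 distinct reads in Cont, HF and HF-R lay on the opposite strand, so its partially matched counts include such reads. MiR-199a-5p had 1642, 2172 and 3610 such counts in Cont, HF and HF-R, and miR-199b-5p had 2038, 1906 and 2529. MiR-214-5p had 52, 64 and 95, and miR-214-3p had 245, 432 and 576. The 4 strands differed in how much of their signal was perfect. The perfectly matched share was 69.3 to 77.5% for miR-199a-5p, 43.6 to 54.5% for miR-199b-5p and 50.9 to 63.0% for miR-214-5p. It was 11.7 to 14.7% for miR-214-3p in the 22 nt form of the merged tables, a 21 nt form described below not counted. Over all miRNAs of these tables, 40.3 to 43.6% of counts were perfect. Most miR-214-3p reads were therefore outside its merged count, and the 3p arm led the 5p arm once they were added. With both classes there were 106 counts of the 5p arm and 282 of the 3p arm in Cont, and 173 and 489 in HF. The 5p to 3p ratio was then 0.376 (0.298 to 0.472), 0.354 (0.296 to 0.422) and 0.329 (0.281 to 0.383).

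**Figure D2:**
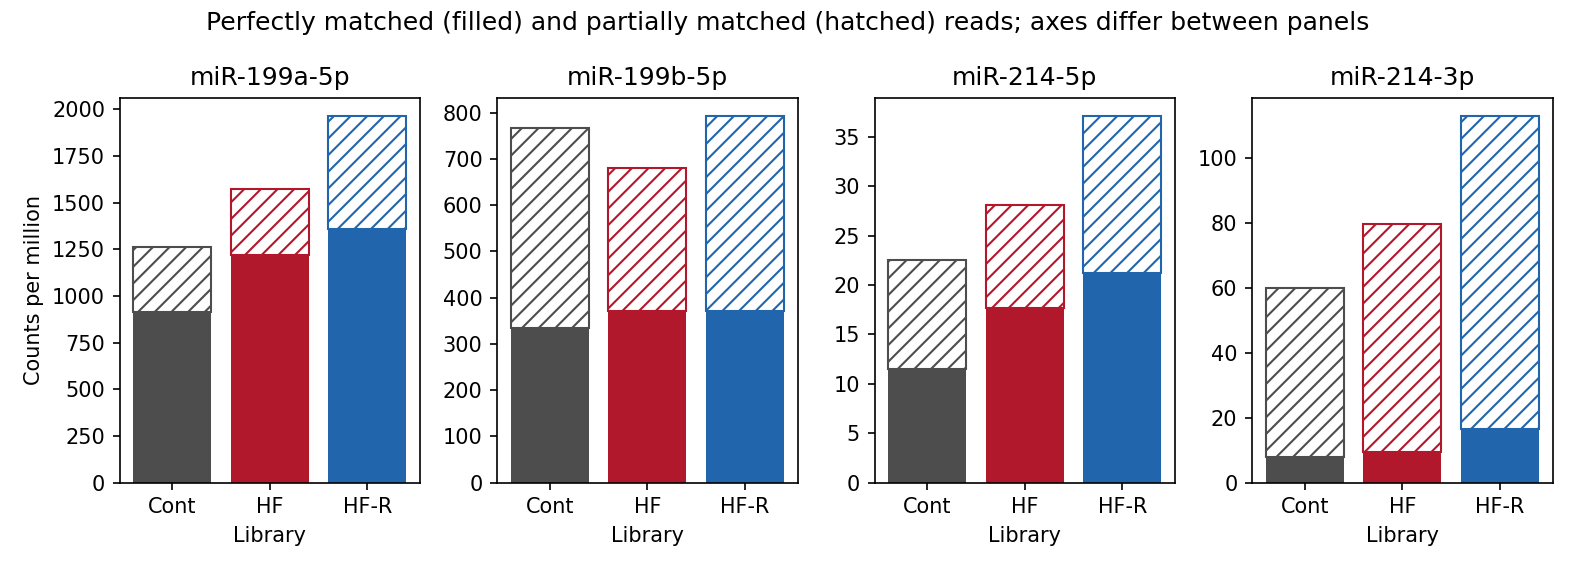
Perfectly matched (filled) and partially matched (hatched) reads of each member in CPM, stacked for each pooled library, with a separate axis for each member. The hatched part is most of miR-214-3p, of which 11.7 to 14.7% is perfectly matched (21 nt form not counted), and the smaller part of miR-199a-5p.

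The partially matched reads are a second count from the same 3 libraries and so not a replicate. For HF/Cont the partially matched ratio was 1.01 (0.949 to 1.08) for miR-199a-5p, 0.716 (0.672 to 0.762) for miR-199b-5p, 0.942 (0.643 to 1.39) for miR-214-5p and 1.35 (1.15 to 1.59) for miR-214-3p. No member was called higher, among 329 partially matched entries of which 15.2% were called higher. Scaled to the total of the partial-match tables, miR-214-3p was called (1.53, 1.30 to 1.79), where 24.9% of entries were. For HF-R/Cont the ratio was 1.73 (1.63 to 1.83) for miR-199a-5p and 1.85 (1.59 to 2.16) for miR-214-3p, which were both called higher, where 6.38% of entries were. MiR-214-5p had 1.44 (1.01 to 2.06) and miR-199b-5p 0.976 (0.92 to 1.04), and neither was called. For HF-R/HF miR-199a-5p (1.71, 1.62 to 1.80) and miR-214-5p (1.53, 1.10 to 2.13) were called higher, where 5.47% of entries were. The call of miR-214-5p was lost with the total of the partial-match tables (1.39). MiR-199b-5p had 1.36 (1.28 to 1.45) and miR-214-3p 1.37 (1.21 to 1.56) in that comparison.

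With both classes added, miR-214-3p had 59.9, 79.5 and 112.7 CPM in Cont, HF and HF-R, with an HF-R/Cont ratio of 1.88 (1.64 to 2.17). MiR-214-5p had 22.5, 28.1 and 37.1 CPM and a ratio of 1.65 (1.30 to 2.10). MiR-199a-5p had 1262, 1571 and 1963 CPM and a ratio of 1.56 (1.51 to 1.61). These 3 strands were called higher in HF-R than in Cont, where 5.8% of 362 entries of both classes were. At this scaling their levels stood in the order Cont, HF, HF-R. For miR-214-5p the HF/Cont interval included 1 (1.25, 0.975 to 1.61). The place of HF in this order was not computed with TMM or DESeq2's size factors. MiR-199b-5p had 767, 681 and 792 CPM and a ratio of 1.03 (0.99 to 1.08), with HF as its lowest library. The tilt between the seed-sharing strands was also present in the partially matched reads. There were 0.806 (0.755 to 0.86) counts of miR-199a-5p per count of miR-199b-5p in Cont, 1.14 (1.07 to 1.21) in HF and 1.43 (1.36 to 1.5) in HF-R. The odds ratio of HF-R over Cont was 1.77 (1.63 to 1.93) in these reads.

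**Figure D3:**
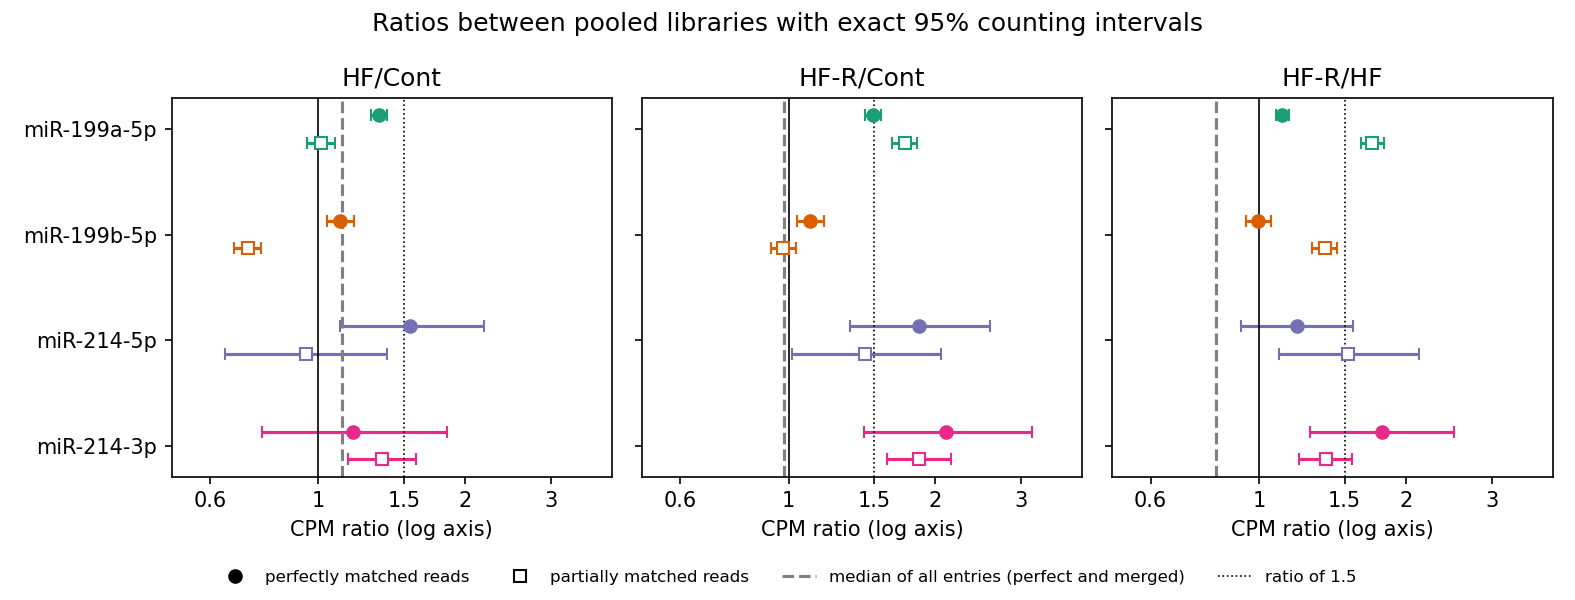
CPM ratio of each member (log axis) in the 3 comparisons, for perfectly matched reads (filled circles) and partially matched reads (open squares), with exact 95% counting intervals, the median of all entries (dashed) and the size threshold of 1.5 (dotted). For HF-R/Cont both classes of miR-199a-5p, miR-214-5p and miR-214-3p lie between 1.44 and 2.10, while those of miR-199b-5p are 1.11 and 0.976.

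The listed reads show what the partial class of miR-214-3p consists of. The tables list each distinct read without a count of its own, with 124, 167 and 219 distinct partially matched reads for this strand. A start could be placed through bases 4 to 13 of the mature strand in 92, 123 and 161 of them. Of these, 42, 66 and 73 began at the annotated 5′ end, and 43, 44 and 75 began 1 nt upstream. Another 4, 9 and 9 began 2 nt upstream. The upstream starts were thus 46.7, 35.8 and 46.6% of the placed reads for 1 nt alone. For miR-199a-5p the share that began at the annotated end was 90.1 to 92.6%, and for miR-199b-5p 90.4 to 94.7%, with at most 2 reads of any library 1 nt upstream. MiR-214-5p had no upstream start among its 11 to 24 placed reads. The longest error-free read of each start that all 3 libraries list is shown, with its own bases 2 to 8 in capitals, because the start sets the seed.
start at the annotated end: aCAGCAGGcacagacaggca
start 1 nt upstream: tACAGCAGgcacagacaggcag
start 2 nt upstream: gTACAGCAggcacagacaggcag
The 3 forms carry 3 different seeds. The extra bases are those of the hairpin, as read from the miR-3120-5p entry on the other strand. In all, 13, 17 and 19 listed reads were error-free pieces of this stretch. Distinct reads are no measure of abundance, and more are listed where a library holds more counts.

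**Figure D4:**
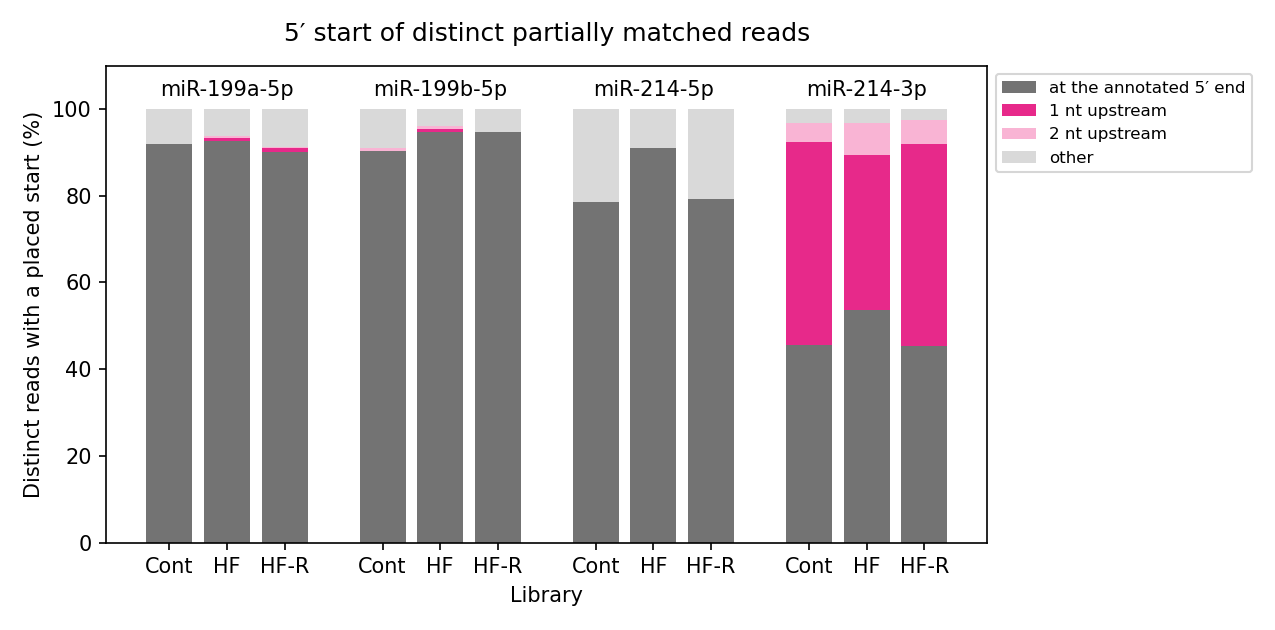
Share of distinct partially matched reads (%) that begin at the annotated 5′ end, 1 nt upstream, 2 nt upstream or elsewhere, by member and pooled library, over reads with a placed start. The share 1 nt upstream is 35.8 to 46.7% for miR-214-3p and at most 0.826% for miR-199a-5p.

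Another form of miR-214-3p was counted perfectly under the rat name. It ends 1 base earlier, at 21 nt, and had 24, 55 and 61 counts, outside the merged tables and outside the partial list of the 22 nt form. When it was counted, 61 of 306, 112 of 544 and 160 of 736 miR-214-3p counts were perfectly matched in Cont, HF and HF-R. With the 21 nt form, the 5p to 3p ratio of perfectly matched counts was 0.885 (0.602 to 1.30), 0.973 (0.741 to 1.28) and 0.794 (0.624 to 1.01). The lead of the 5p arm in HF was then no longer present.

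Of the distinct partially matched reads, 231, 277 and 366 belonged to miR-199a-5p and 281, 271 and 322 to miR-199b-5p. Only 8, 11 and 11 reads were listed under both strands, between 2.85 and 4.06% of either list. The median length was 23 nt for miR-199a-5p and 22 nt for the other 3 members in each library. Of the distinct reads of miR-199a-5p, 120 of 536 were listed in all 3 libraries, against 121 of 539 for miR-199b-5p, 50 of 354 for miR-214-3p and 3 of 65 for miR-214-5p.

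The 3p strand of the miR-199 hairpins, an abundant heart miRNA in human and mouse that promotes division of rodent cardiomyocytes, was no entry of the merged tables. The tables of each library name it at 3 positions, on chromosomes 3, 5 and 12, each beside a 5p strand, and leave its perfect count blank in all 3 libraries. The partial class gave it 3, 11 and 8 counts. Its mature form and the one read that all 3 libraries list for it are shown for comparison, with the seed of the first and the differing base of the second (G11A) in capitals.
miR-199a-3p: aCAGTAGTctgcacattggtta
listed read: acagtagtctAcacattggtta
A base other than the mature one at position 11 was found in 3 of 3, 5 of 7 and 6 of 6 listed reads. A blank was not peculiar to this strand, since 552 of the 904 sequences in these tables were blank in all 3 libraries. Among them were all 99 sequences that equal, contain or lie within a sequence of the oar- table. MiR-199a-3p is not one of these 99. RefSeq gives the sheep miR-199a gene the synonym oar-mir-199a, and whether its 3p strand was counted elsewhere was not tested. A level of miR-199a-3p can thus not be drawn from these counts.

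Entries on the opposite strand of the miR-214 hairpin share its reads. MiR-3120-3p (chr12:37687913-37687933, plus strand) had 2, 5 and 8 merged counts. The sequences show how the reads are shared, in that the read listed for it in all 3 libraries is miR-214-5p without its last base, and among perfectly matched reads its own strand was listed in HF only.
miR-3120-3p: cACAGCAAgtgtagacaggca
read in all 3 libraries: tgcctgtctacacttgctgtg
read in HF: cacagcaagtgtagacaggca
In the partial class the reads of miR-3120-3p were those of miR-214-5p in full, with 23, 23 and 38 distinct reads and the same counts. Of these, 6, 7 and 2 reads lay on the miR-3120-3p strand. The partially matched and added counts and ratios of miR-214-5p include them, and what share of the counts they hold is not known. MiR-3120-5p (chr12:37687875-37687895, plus strand) shared 115 of its 117 distinct reads with miR-214-3p in Cont, 152 of 157 in HF and 201 in HF-R. Its only perfect count, 1 in HF-R, came from a read of the miR-214 strand.

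By the Euclidean distance of log2 HF/Cont and log2 HF-R/Cont over 190 other entries that averaged 100 counts or more, 3 entries were named for each member. Both ratios share the Cont library. Nearest to miR-214-3p was miR-21, a miRNA of cardiac fibroblasts and fibrosis (distance 0.14), with 53224, 89870 and 139613 counts in Cont, HF and HF-R and ratios of 1.29 and 2.06. It was followed by miR-221 (0.23), with 2572, 4501 and 6285 counts and ratios of 1.34 and 1.92, and by miR-432-5p (0.59). Nearest to miR-214-5p were miR-221 (0.21), miR-21 (0.30) and miR-193b-3p (0.42). The nearest entries to miR-199a-5p were miR-432-5p (0.23) with ratios of 1.15 and 1.40, miR-26b-5p (0.28) and miR-103 (0.31). Those to miR-199b-5p were let-7c-5p (0.02), miR-107 (0.07) and let-7f (0.09). Likeness over 2 ratios is a description of 3 libraries, and many entries lay close to miR-199b-5p, with 27 of the 190 within 0.25, against 1 for miR-199a-5p. The distances take no account of counting error. For miR-214-3p the intervals were 0.766 to 1.83 (HF/Cont) and 1.43 to 3.16 (HF-R/Cont). Both hold the ratios of miR-21 and of miR-221, so the order of these is not firm.

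**Figure D5:**
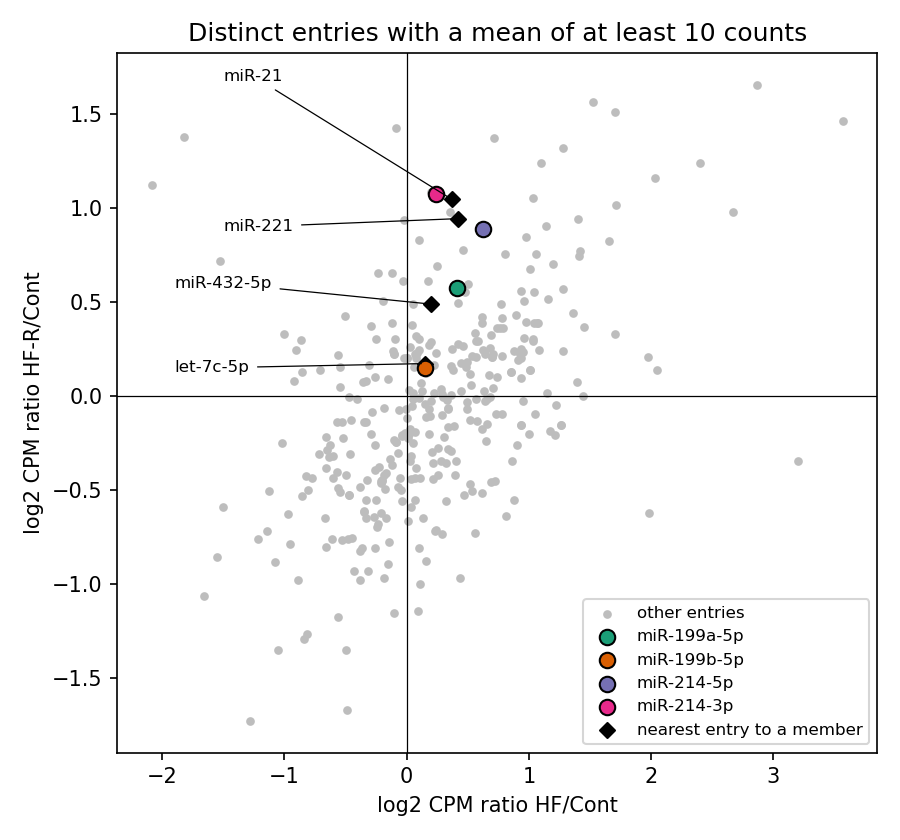
log2 CPM ratio of HF/Cont (horizontal) against HF-R/Cont (vertical) for the distinct entries that averaged 10 counts or more, and both share the Cont library. Members are large circles and their nearest entries black diamonds, with miR-214-3p at 0.24 and 1.07 beside miR-21 at 0.37 and 1.04.

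Other miRNAs tied to fibrosis and fibroblasts are given for comparison, and no difference from the members was tested. Of 31 entries of that list, 21 reached the count minimum. For HF/Cont 8 were called higher and 1 lower, beside 22.8% and 7.87% of all entries, with a median ratio of 1.53 against 1.12 over all entries. For HF-R/Cont 2 were called higher and none lower (4.78% and 11.2% of all entries, median 1.06 against 0.98). For HF-R/HF 2 were called higher and 6 lower (5.06% and 23.3% of all entries, median 0.642 against 0.817). The most abundant was miR-26a-5p, with ratios of 0.824 for HF/Cont and 0.943 for HF-R/Cont, neither called, followed by miR-21 and by miR-125b, which was not called in any comparison (1.44 for HF/Cont). MiR-24-3p was called higher in HF (1.91) and lower in HF-R than in HF (0.558), and miR-101-3p likewise (2.34 and 0.415). MiR-21 was called higher in HF-R than in Cont and than in HF (1.60). Of 34 entries of a list tied to hypertrophy, 26 reached the minimum. The fibrosis and hypertrophy lists share entries, among them miR-21, miR-125b and miR-24-3p, so their counts of calls are not separate. Within a list, 1 miRNA can also stand under several species names. MiR-24-1-5p had HF/Cont ratios of 0.879 (mmu-), 1.62 (rno-) and 2.09 (hsa-). For HF/Cont 7 were called higher and none lower, for HF-R/Cont 5 higher and 1 lower, and for HF-R/HF 1 higher and 4 lower, with medians of 1.37, 1.10 and 0.829 against 1.12, 0.98 and 0.817 over all entries. These counts are to be read against the same shares of all entries, of which 22.8% were higher in HF than in Cont and 23.3% lower in HF-R than in HF. The most abundant entries, miR-27a-3p (HF/Cont 1.41) and miR-22-3p (0.996), were not called in any comparison. MiR-23a was called higher in HF (2.02) and HF-R (1.60).

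In a whole-tissue library a member can differ because cells that hold it are more or fewer or because each holds more or less of it, and these cannot be told apart. Entries of the cardiomyocyte list (16 of 19 at the count minimum) made up 33.0, 33.3 and 39.7% of the counts of Cont, HF and HF-R. Most of this was miR-1, which alone held 26.3, 25.4 and 32.4% of the counts. In the same list the HF-R/Cont ratio was 1.23 for miR-133 and 0.998 for miR-499a-5p. Entries of the smooth muscle and pericyte list (7 of 7) made up 10.2, 8.36 and 8.91%, nearly all of it miR-143-3p (HF/Cont 0.815), while the median HF/Cont ratio of the list was 1.41. Those of the blood cell list (9 of 11) made up 0.433, 0.419 and 0.354%. For HF/Cont, 1 of the 16, 2 of the 7 and 1 of the 9 were called higher and 2 of the 9 blood cell entries lower, beside 22.8% higher and 7.87% lower over all entries. For HF-R/Cont, 1 of the 16 was called higher, none of the 7 was called, and 2 of the 9 were called lower, beside 4.78% higher and 11.2% lower over all entries. No entry of the tables used here matched miR-126, the endothelial marker. The paper also lists miR-126-3p as not detected by sequencing, but measured it in sheep LV by array and by qPCR. The cardiomyocyte share, most of it miR-1, was highest in HF-R, and it is not a measure of how many cardiomyocytes a sample held. What part tissue makeup had in the members' values was not tested.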

How the data were processed

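Small RNA of sheep LV tissue was sequenced as 1 library per condition (Cont, HF, HF-R) on an Illumina NextSeq, after RNA of 4, 6 and 4 sheep was pooled. Reads of 15 to 30 nt were kept by the authors, who used Blast against miRBase v21 and then Bowtie against the Oar_v4.0 build (versions not given in the sources used here). What they deposited for each miRNA is an unscaled read count, blank where a library has no value. Reads were amplified without molecular identifiers, so intervals cover counting error only.

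Entries of both merged tables were reduced to distinct entries and scaled to CPM. Intervals were exact Poisson, Clopper-Pearson and conditional ones at 95% (Python 3.11.15, scipy 1.17.1), and a count of 0 was set to 3 counts in a ratio. Total counts were 4711131, 6154795 and 5990078, where 3 counts are 0.637, 0.487 and 0.501 CPM. The 70 to 99% match counts and the read lists came from the tables of each library. The ratio and its call were tested on simulated data with 200 changed entries. For HF/Cont (335 entries run), those changed 2-fold were called in 83.6% of cases and those changed 1.5-fold in 43.9%. The simulated counts held counting error only, with no spread between sheep or libraries.

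The members and lists were chosen with earlier results of these data known. Named entries were the members, entries that overlap them on either strand, the 3 entries averaging 100 counts or more that were nearest to each member averaging at least 30, and members of the lists with the highest means. MiR-24-3p, miR-23a, miR-101-3p and the reads printed were chosen after their values were seen. Alternatives were TMM (edgeR 4.0.16), DESeq2's size factors (DESeq2 1.42.0), CPM without miR-1, raw counts, the total of the perfect-match tables, all entries with duplicates, thresholds of 1.2 and 2, and either no count minimum or one of 100. The partially matched reads and the 21 nt form were added after seeing the data. The other sheets of the merged workbooks were not used.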

Additional observations from a re-analysis of the deposited data

Results flagged for a closer look

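The 21 nt form of miR-214-3p, counted under the rat name and outside the merged tables, stood above its control level in both other libraries at the CPM scaling. It had 5.09 CPM (95% Poisson interval 3.26 to 7.58) in Cont, 8.94 CPM (6.73 to 11.6) in HF and 10.2 CPM (7.79 to 13.1) in HF-R. Its ratio was 1.75 (1.07 to 2.96) for HF/Cont, 2.00 (1.23 to 3.35) for HF-R/Cont and 1.14 (0.778 to 1.67) for HF-R/HF. The 22 nt form had 1.18 for HF/Cont, and both forms added had 1.41 (1.02 to 1.95) for HF/Cont, 2.06 (1.53 to 2.82) for HF-R/Cont and 1.47 (1.15 to 1.89) for HF-R/HF. Neither the 21 nt form nor the sum was computed with another scaling. The HF/Cont ratio of the median entry moved from 1.12 to 0.878 with TMM, so the HF/Cont values above are not firm.

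The partially matched reads listed for miR-199a-3p were also above their control level, with 0.637 CPM (0.131 to 1.86) in Cont, 1.79 CPM (0.892 to 3.20) in HF and 1.34 CPM (0.577 to 2.63) in HF-R. The control level is that of 3 counts. The ratio was 2.81 (0.741 to 15.7) for HF/Cont and 2.10 (0.503 to 12.3) for HF-R/Cont, and both intervals include 1, so that no difference was detectable at this depth.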

How the results depend on the processing

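No paired analysis was possible because each condition has 1 pooled library, and leaving out a replicate was not possible for the same reason. 1 member was called for HF/Cont, against 0 with TMM, DESeq2's size factors, the partially matched reads (scaled to the totals of the merged tables), both match classes added, a size threshold of 2 or a count minimum of 100, 2 with a threshold of 1.2 and 3 on raw counts. For HF-R/Cont 2 were called, against 3 on raw counts, with duplicates, without miR-1, with the factors of DESeq2, with both classes or with a threshold of 1.2, 1 with a threshold of 2 and 0 with a count minimum of 100, which leaves out both miR-214 arms. For HF-R/HF 1 was called, against 2 with TMM or the partially matched reads and 0 with both classes, a threshold of 2 or a count minimum of 100. MiR-214-5p turned from 1.55 to 0.942 for HF/Cont in the partially matched reads, which gave 1.07 (0.728 to 1.57) when scaled to the total of their own tables.

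The summed HF/Cont ratio of 1.28 was 1.00 with TMM, 1.09 with DESeq2, 1.67 on raw counts, 0.88 in the partially matched reads, 0.996 in those scaled to the total of their own tables, and 1.12 with both classes. The summed HF-R/Cont ratio of 1.40 was 1.45 with DESeq2, 1.52 without miR-1, 1.77 on raw counts, 1.26 with the total of the perfect-match tables and 1.35 in the partially matched reads. The summed HF-R/HF ratio of 1.09 was 1.40 with TMM, 1.33 with DESeq2, 1.21 without miR-1, 0.996 with the total of the perfect-match tables, 1.53 in the partially matched reads, 1.39 in those scaled to their own tables and 1.23 with both classes. The median of all entries moved with these scalings too, for HF/Cont from 1.12 to 0.878 with TMM and 0.959 with DESeq2.

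The ratio of miR-214-5p to miR-214-3p was 0.376, 0.354 and 0.329 (Cont, HF, HF-R) with both classes, and 0.885, 0.973 and 0.794 with the 21 nt form. With either the value fell below 1 in all 3 libraries, from 1.46, 1.91 and 1.28. The main intervals of Cont and HF-R included 1, as did all 3 intervals with the 21 nt form. The ratio of miR-199a-5p to miR-199b-5p was 0.806, 1.14 and 1.43 in the partially matched reads, turning in Cont, and 1.65, 2.31 and 2.48 with both classes. With duplicates the members held 0.118, 0.150 and 0.167% of counts. Of 123 values of single members under an alternative, 42 left the main interval and 16 lay on the other side of 1. Of these, 14 were of miR-199b-5p (7 of them HF-R/HF values, whose main value is 1.00, 5 HF/Cont values, at 0.716 to 0.95, and 2 HF-R/Cont values), 1 was of miR-214-3p (HF/Cont 0.924 with TMM) and 1 of miR-214-5p, as given above. Beyond the scalings and read classes named, the cause of these moves was not tested. Depth limits the miR-214 arms most, with 37 to 127 counts per library.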
